A study of Homo sapiens with 24 samples.

Results

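The control variant of the glioblastoma cell line U251MG was compared with the control variants of 3 other glioblastoma cell lines, U87MG, T98G, and DBTRG-05MG, to describe the genes that give U251MG its own expression profile before WWOX is overexpressed. The comparison used 12 CAGE-Seq libraries of the 24 in the series, that is 3 “Vec” libraries of U251MG and 3 of each other line, with each of the other lines weighted equally. Members were the autosomal genes that reached 5 CPM (tags of a gene scaled to a common library size) in at least 1 of these libraries, which left 11474 genes of 43037 in the deposited table.

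All 4 are established human cell lines used as models of glioblastoma. The paper states that the U87MG it used differs from the original line of that name. The patient it came from is unknown, although its origin in the central nervous system is established. In every line the “Vec” variant carries the Puro-Blank control lentivirus and the “WWOX” variant a GIPZ lentivirus for overexpression of WWOX, WWOX being a tumor suppressor with WW domains, and both were kept as stable transductants under puromycin selection. Non-transduced parental cells were not analysed here. U251MG and U87MG were grown in EMEM, T98G in MEM, and DBTRG-05MG in RPMI 1640, so that a line and its medium cannot be told apart in T98G and DBTRG-05MG. The 3 libraries of a group are biological triplicates. Whether they came from separately transduced populations is not given in the sources used here, and p-values measure the spread between libraries of a line and not between tumors. As these are bulk cultures, a change in the share of cells that use a gene and a change in the RNA of each cell cannot be told apart.

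Glioblastoma is a malignant glioma whose cells keep parts of the programs of astrocytes and of neural progenitors. Mature astrocytes are known by glial fibrillary acidic protein and the calcium-binding protein S100B, while neural progenitors are known by the transcription factor SOX2 and the intermediate filament nestin. Cultured lines may keep one of these programs, both, or neither, and many show mesenchymal genes instead. CAGE-Seq reads the capped 5′ end of each RNA, so that a gene is counted at its start sites and the count does not grow with the length of the transcript.

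The 12 libraries held from 12333788 to 15960454 tags on genes, at which depth 3 tags amount to 0.188 to 0.243 CPM. On the log2 scale, U251MG libraries correlated with each other at r of 0.957 to 0.985 and with libraries of the other lines at 0.747 to 0.838 across genes, which are not independent replicates. WWOX itself, the gene the series is about, was read at 31.4, 36.8, and 32.1 CPM in the U251MG libraries. The means of U87MG, T98G, and DBTRG-05MG were 37.9, 43.3, and 21.3 CPM, and the log2 difference of U251MG from their mean was -0.05 ± 0.15 (SE, limma adjusted p = 0.82). U251MG lay inside the range of the other lines for this gene. In the “WWOX” libraries of U251MG the gene stood at 56.7, 17.4, and 38.0 CPM, a spread that covers the “Vec” values. The “WWOX” means of U87MG, T98G, and DBTRG-05MG were 62.7, 55.6, and 29.4 CPM, each above the “Vec” mean of that line. The paper verified the efficiency of transduction by Western blot, which measures protein, and these RNA counts do not bear on that. WWOX overlaps 23 other annotated genes, and whether the counts use strand is not given in the sources used here.

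U251MG differed from the mean of the other lines in 4234 of 11474 genes (36.9%) at a limma adjusted p under 0.05. Of these, 2003 were higher (17.5%) and 2231 lower (19.4%), and the median difference over all tested genes was -0.002 on the log2 scale, with a median SE of 0.234. A mean of 3 lines can be carried by 1 of them, so a gene is called set apart below only where U251MG also passed the threshold against each of the other lines with the same sign. There were 842 such genes, 432 higher (3.77%) and 410 lower (3.57%). The 3 U251MG libraries lay above all 9 others in 672 genes (5.86%) and below all 9 in 657 (5.73%). Among the tested genes, 250 reached 5 CPM in U251MG only, of which 132 were set apart higher, and 1912 stayed under 5 CPM in U251MG, of which 245 were set apart lower. Those genes passed the filter only through the group where they are high.

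The other genes past the threshold were not separated from every line. Among the higher genes, 453 were separated from U87MG and T98G but not from DBTRG-05MG, 310 from the other lines but T98G, and 225 from the other lines but U87MG. Among the lower genes the same counts were 420, 386, and 266. In pairwise contrasts, U251MG passed the threshold in 4814 genes against U87MG, 3974 against T98G, and 3932 against DBTRG-05MG, with median absolute log2 differences of 0.617, 0.534, and 0.534. The differences between these counts were not tested.

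The gene with the largest difference was GFAP (chromosome 17, 44903159 to 44916937, minus strand, hg38), which encodes the glial intermediate filament. The U251MG libraries held 3115, 2815, and 2035 CPM. In the other lines the libraries ranged from 0.79 to 6.46 CPM. U251MG stood 956 times above the mean of the other lines in CPM, and the log2 difference was 9.72 ± 0.35 (SE, limma adjusted p = 2.3e-10). Genes of largest difference were named only where the U251MG libraries lay outside the range of the other 9. S100B, the astroglial calcium-binding protein, was at 343, 154, and 265 CPM in U251MG, at 9.62, 1.87, and 15.1 CPM in DBTRG-05MG, and under 1 CPM in every library of U87MG and T98G. Its log2 difference was 7.17 ± 0.43. CRYAB, the small heat shock protein alpha-B crystallin, which astrocytes make under stress, was at 1704, 863, and 792 CPM in U251MG and at no more than 31.9 CPM in any other library, a log2 difference of 6.42 ± 0.48.

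Among the other genes at the top of the higher side, GPM6A, which encodes a neuronal membrane glycoprotein, was at 77.8, 106, and 73.8 CPM in U251MG and at most 1.78 CPM elsewhere. EPB41L3, a membrane skeleton protein lost in many meningiomas, was at 39.97, 75.4, and 44.2 CPM against at most 1.11. GAS7, which is linked to neurite outgrowth, was at 39.8, 146, and 45.3 CPM against at most 1.62. That the groups did not overlap was a condition for naming these genes. IL18, a cytokine of the interleukin-1 family, was at 207, 181, and 299.6 CPM in U251MG and never above 2.53 CPM in the others. AIF1L, an actin-binding relative of the microglial protein AIF1, was at 483, 832, and 525 CPM with a log2 difference of 7.72 ± 0.26, while AIF1 itself had no tag in any of the 12 libraries. CAPS, the calcium-binding protein calcyphosine, was at 94.8, 246, and 115 CPM against at most 2.82. C5orf46, which encodes a small secreted peptide, was at 644, 263, and 150.02 CPM, a wide spread, but the other libraries stayed at or under 1.38 CPM.

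Of the 12 genes on this side, 8 overlap another annotated gene, so that their counting is uncertain where strand was not used, and 2 have near-identical copies. TMSB4XP4, C5orf46, and CAPS overlap a gene on the same strand, so that their counting is uncertain with strand as well. TMSB4XP4 is a processed pseudogene of TMSB4X, the thymosin beta-4 gene, and was at 3146, 3779, and 4609.5 CPM in U251MG against at most 24.04 CPM. TMSB4X lies on chromosome X, outside the tested genes, and was at 1709.8 to 9700.2 CPM in the 12 libraries, so that reads of this near-identical pair may be split between the copies. H4C9, a replication-dependent histone H4 gene with near-identical copies, was at 108, 140.3, and 123 CPM against at most 0.524.

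**Figure D1:**
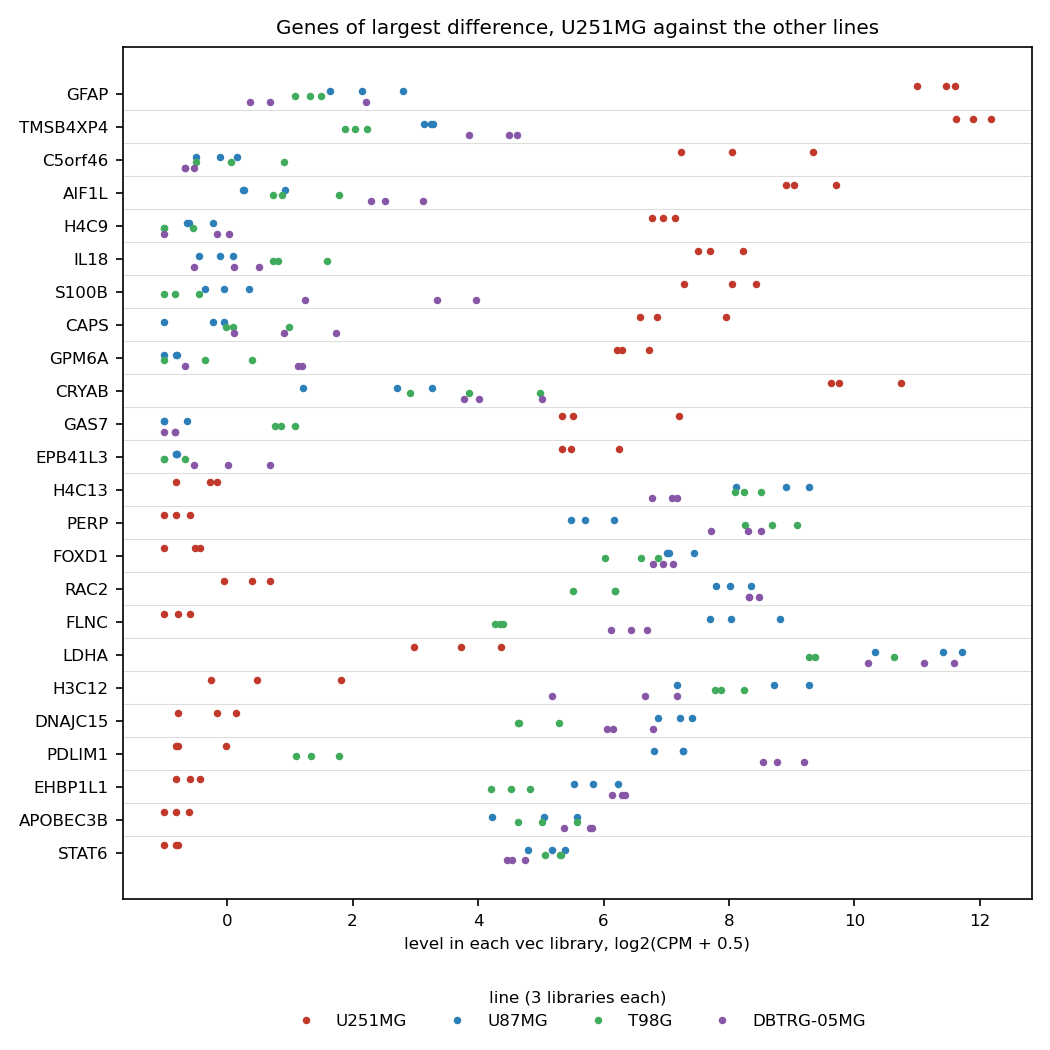
Level of the 24 genes of largest difference in each of the 12 “Vec” libraries, as log2(CPM + 0.5) on the horizontal axis, 1 point per library and 1 color per line. The 12 genes from GFAP to EPB41L3 have all 3 U251MG points to the right of the other 9, and the 12 from H4C13 to STAT6 have them to the left. This separation was a condition for choosing the genes.

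On the lower side, genes that the other 3 lines use were low or close to no tags in U251MG, although PDLIM1 was low in T98G too. LDHA (chromosome 11, 18394560 to 18408425, plus strand) encodes the muscle-type subunit of lactate dehydrogenase, the enzyme that turns pyruvate into lactate at the end of glycolysis. It was at 7.38, 20.1, and 12.7 CPM in U251MG. In U87MG it was at 1277, 2716, and 3375 CPM, in T98G at 622, 1579, and 662 CPM, and in DBTRG-05MG at 3074, 1184, and 2202 CPM. The other lines stood 138 times above U251MG, and the log2 difference was -7.03 ± 0.36 (SE, limma adjusted p = 6e-09). FOXD1, a forkhead transcription factor of developing stroma and forebrain, was at 0, 0.239, and 0.201 CPM in U251MG and between 64.3 and 174 CPM in the other 9 libraries, with a log2 difference of -7.56 ± 0.22. RAC2, a small GTPase best known from blood cells, was at 0.811, 1.11, and 0.469 CPM in U251MG against 44.99 to 357 CPM.

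PERP, a desmosomal protein, had 3 tags in all U251MG libraries together and 44.2 to 539.8 CPM in the others. The ratio of the other lines to U251MG was 3358, with a 95% exact Poisson interval of 1149 to 16282 that covers counting error only. FLNC, the muscle filamin, also had 3 tags, with a ratio of 1699 (581 to 8238). APOBEC3B, a cytidine deaminase, had 3 tags and a ratio of 519.9 (178 to 2521). STAT6, the transcription factor of interleukin-4 signaling, had 2 tags and a ratio of 652 (180.5 to 5384). It was between 21.6 and 41.3 CPM in the other 9 libraries, a narrow range. The gap between U251MG and the other lines in these 4 genes was again a condition for naming them.

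DNAJC15, a mitochondrial co-chaperone, was at 0.0811, 0.398, and 0.603 CPM in U251MG against 24.4 to 169.9 CPM. PDLIM1, an actin-associated adaptor with PDZ and LIM domains, was at no more than 0.486 CPM in U251MG and varied widely among the others, from 2.21 CPM on average in T98G to 464 CPM in DBTRG-05MG. EHBP1L1, which takes part in vesicle transport, was at no more than 0.239 CPM in U251MG against 18.04 to 81.01 CPM. The histone genes H4C13 and H3C12 were at 0.263 and 1.42 CPM on average in U251MG and at 109 to 616 and 35.7 to 616 CPM in the others, and they too have near-identical copies among which reads may be split. All 24 genes of largest difference had limma adjusted p of at most 1.9e-07. They were picked from genes past the threshold, so small p-values follow from the choice. C5orf46, H4C9, IL18, CAPS, GPM6A, GAS7, and EPB41L3 reached 5 CPM in U251MG only. All the lower ones but LDHA stayed under 5 CPM in U251MG. These genes passed the filter only through the group where they are high. Of the 24, 14 overlap another annotated gene. LDHA and H3C12 overlap one on the same strand, where counting is uncertain with strand as well.

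As CAGE-Seq reads start sites, the promoter windows of 5 of these genes are shown from RefSeq (GRCh38.p14), each from 250 bases before to 50 bases after the start. They set 4 genes that are low in U251MG (LDHA, FOXD1, PERP, and DNAJC15) beside 1 that is high there (C5orf46). Capitals mark, on either strand, the core of the hypoxia response element (ACGTG) and the cAMP response element (TGACGTCA) in LDHA, the GC box (GGGCGG) in FOXD1 and PERP, and the letters of the TATA box (TATAAA) in DNAJC15 and C5orf46. Overlapping matches were all marked and counted, and a palindromic match was counted once. A match is a run of letters and was not tested as a site. The LDHA window is chr11:18394313-18394612 on the plus strand.
LDHA: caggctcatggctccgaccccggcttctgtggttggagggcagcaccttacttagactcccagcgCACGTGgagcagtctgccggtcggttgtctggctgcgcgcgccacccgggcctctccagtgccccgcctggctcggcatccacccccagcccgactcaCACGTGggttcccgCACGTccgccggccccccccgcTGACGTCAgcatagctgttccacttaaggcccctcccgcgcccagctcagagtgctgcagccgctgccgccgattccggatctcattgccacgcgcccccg
The FOXD1 window is chr5:73448728-73449027 on the minus strand.
FOXD1: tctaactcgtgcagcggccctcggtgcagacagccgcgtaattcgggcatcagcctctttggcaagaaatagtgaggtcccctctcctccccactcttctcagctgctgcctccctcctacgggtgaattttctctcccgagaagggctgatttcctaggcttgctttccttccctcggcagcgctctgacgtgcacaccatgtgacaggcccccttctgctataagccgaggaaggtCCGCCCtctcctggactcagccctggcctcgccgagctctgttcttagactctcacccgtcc
The PERP window is chr6:138107370-138107669 on the minus strand.
PERP: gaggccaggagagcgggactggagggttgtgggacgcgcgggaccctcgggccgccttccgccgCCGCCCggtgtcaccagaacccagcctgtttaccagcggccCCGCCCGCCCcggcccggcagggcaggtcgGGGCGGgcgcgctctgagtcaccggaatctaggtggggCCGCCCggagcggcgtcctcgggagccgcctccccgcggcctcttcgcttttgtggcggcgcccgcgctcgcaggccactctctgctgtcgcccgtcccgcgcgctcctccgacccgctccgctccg
The DNAJC15 window is chr13:43023336-43023635 on the plus strand.
DNAJC15: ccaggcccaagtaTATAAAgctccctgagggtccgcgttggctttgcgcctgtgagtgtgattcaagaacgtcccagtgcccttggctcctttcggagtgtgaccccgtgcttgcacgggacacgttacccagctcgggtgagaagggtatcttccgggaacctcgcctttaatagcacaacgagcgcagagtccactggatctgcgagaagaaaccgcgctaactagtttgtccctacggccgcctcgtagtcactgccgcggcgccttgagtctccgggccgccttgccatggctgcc
The C5orf46 window is chr5:147906489-147906788 on the minus strand.
C5orf46: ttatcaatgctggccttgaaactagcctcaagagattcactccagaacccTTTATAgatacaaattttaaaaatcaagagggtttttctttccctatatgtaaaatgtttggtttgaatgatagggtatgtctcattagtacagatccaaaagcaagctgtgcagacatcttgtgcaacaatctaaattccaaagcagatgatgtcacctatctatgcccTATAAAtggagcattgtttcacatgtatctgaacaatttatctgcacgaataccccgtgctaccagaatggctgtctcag

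The LDHA window held 5 matches to the hypoxia response element core and 1 to the cAMP response element, and the PERP window 5 to the GC box. These are not all separate places. Each CACGTG in LDHA gave 2 overlapping matches, 1 on each strand, at 185 and 184 and at 87 and 86 bases before the start. The PERP matches at 145 and 141 bases before the start overlap too. The FOXD1 and DNAJC15 windows also held 1 match each to the hypoxia response element core, not marked. TATAAA lay 237 bases before the start in DNAJC15, whose RefSeq start is 383 bases from that of the GENCODE gene, and 200 (on the opposite strand) and 30 bases before it in C5orf46. Of 35116 RefSeq windows, 21.4% held ACGTG, 1.85% TGACGTCA, 45.0% GGGCGG, and 11.5% TATAAA. The 4 windows of genes low in U251MG had a GC content of 70, 59.7, 77, and 60% and 29, 16, 43, and 24 CpG dinucleotides. The C5orf46 window had a GC content of 38% and 2 CpG dinucleotides. The 5 windows were picked by hand for display, and C5orf46 does not stand for the higher genes, whose shares follow. A CpG-rich window was taken as one with at least 50% GC and an observed to expected CpG ratio of at least 0.6. Among the set-apart genes with a window, 234 of 302 lower genes (77.5%) and 242 of 321 higher genes (75.4%) had a CpG-rich one, beside 7452 of 9087 tested genes (82.0%). Where the mean of U251MG was under 1 CPM, 78 of 114 lower genes with a window (68.4%) were CpG-rich, and where the mean of the other lines was under 1 CPM, 27 of 45 higher genes (60%) were. No test was run on these shares, and methylation was not measured here.

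The gene lists group 575 tested genes by known role, of which 306 passed the threshold (53.2%, beside 36.9% of all tested genes). The lists were chosen with earlier results of these data known, so their counts are a description. Over all tested genes 17.5% were higher and 19.4% lower, and each count below is to be read beside these shares. For counts of genes set apart, the shares over all tested genes are 3.77% higher and 3.57% lower. In what follows, a CPM with ± is a mean with its SD over 3 libraries, and a value without a unit is the log2 difference of U251MG from the mean of the other lines, with its SE after ±. That mean is taken over log2 values. A line near no tags can thus make a gene higher although its CPM lies below the mean CPM of the other lines. Of 18 tested astroglial genes, 11 were higher in U251MG (61.1%), 4 were lower (22.2%), and 3 did not pass, with a median log2 difference of 1.26. The lower count was 2 in edgeR, DESeq2, and limma-voom. Beside GFAP, S100B, and CRYAB, the membrane protein MLC1 (25.3 CPM against at most 1.38 in any other library, log2 difference 5.12 ± 0.30) and the fatty acid binding protein FABP7 were set apart higher. FABP7 was at 40.6, 82.4, and 28.3 CPM in U251MG and at 28.9, 9.34, and 22.1 CPM in DBTRG-05MG, while U87MG and T98G averaged 0.0494 and 0.128 CPM.

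Other astroglial genes were shared with some lines. The phosphatase PTPRZ1 averaged 18.3 ± 5.14 CPM (SD, n = 3) in U251MG and 16.6 ± 15.4 CPM in DBTRG-05MG, and the transcription factor SOX9 was higher than the mean (1.97 ± 0.37) without being set apart. The glutamate transporter SLC1A3 averaged 16.9 ± 4.17 CPM in U251MG and 17.3 ± 4.97 CPM in U87MG. On the lower side, the chaperone clusterin (CLU) was set apart (-1.69 ± 0.29), and the brain aldolase ALDOC averaged 0.227 CPM in U251MG and 0.25 in T98G against 51.9 and 33.3 CPM in U87MG and DBTRG-05MG. Markers of mature astrocytes were not all present. The water channel AQP4 had no tag in U251MG, the glutamate transporter SLC1A2 averaged 0.067 CPM, and ALDH1L1 averaged 0.0982 CPM. The intermediate filament VIM averaged 55.8 CPM, with a difference of 0.52 ± 0.18 (limma adjusted p = 0.042) that lost the threshold when any 1 of 7 libraries was left out, and it overlaps 2 genes on the opposite strand.

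Of 16 tested neural progenitor genes, 10 were higher (62.5%, beside 17.5% of all tested genes) and 3 lower (18.8%, beside 19.4%). The lower count was 1 in edgeR and 2 in DESeq2, and the median log2 difference was 1.47. SOX2, the transcription factor of neural stem cells, was at 71.3, 172, and 50.8 CPM in U251MG, 43.9, 44.6, and 52.4 CPM in DBTRG-05MG, and under 1 CPM in every library of U87MG and T98G. SOX2 was thus high in 2 of the 4 lines, and U251MG was not separated from DBTRG-05MG at the threshold. The factor POU3F2 followed the same order, with 43.4 ± 44.1 CPM in U251MG and 22.6 ± 12.9 CPM in DBTRG-05MG. NES, nestin, was set apart higher, with 95.8, 129, and 56.99 CPM in U251MG against 36.7, 19.5, and 60.5 CPM in DBTRG-05MG. POU3F3 was set apart (3.39 ± 0.22), and the RNA-binding protein MSI1 averaged 8.397 ± 2.46 CPM in U251MG and 9.38 ± 1.41 in DBTRG-05MG. PROM1, which encodes CD133, was at 0.027 CPM in U251MG and at or near no tags in U87MG and T98G, and it was 7.05 ± 3.74 CPM in DBTRG-05MG. CSPG4, or NG2, had no tag in U251MG, and the mean of the other lines was at least 45.6-fold higher than 3 tags in 1 library. OLIG2, which marks another glioma state, stayed under 2 CPM on average in every line and was not tested.

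Marker lists of other cell types were checked for the identity of the cultures. Of 25 neuronal genes, 13 were tested, and 5 were higher, 2 lower, and 6 not past the threshold. Without U251MG replicate 1 these were 2 higher and 1 lower, the lower count was also 1 without U251MG replicate 2, and it was 4 without DBTRG-05MG replicate 2. The microtubule protein MAPT was set apart higher (4.404 CPM against 0.261, 1.200, and 0.152) and the synaptic SNAP25 set apart lower (0.681 against 24.7, 4.35, and 10.6 CPM in U87MG, T98G, and DBTRG-05MG), while RBFOX3 had no tag in any library. Of 9 oligodendrocyte genes, 3 were tested, 2 were higher and 1 did not pass. The higher ones were CNP (324 ± 97.5 CPM, set apart) and MBP. MBP was higher on the log2 scale only, at 6.64 ± 1.27 CPM, with 33.1 ± 1.55 CPM in DBTRG-05MG. MOG and SOX10 had no tag in U251MG. Of 9 endothelial genes, 2 were tested, with KDR higher (1.35) and ESAM lower in limma alone of the 4 tools (0.312 CPM, with 6.53 CPM in DBTRG-05MG), and PECAM1 had no tag in U251MG. Among 9 leukocyte genes, CSF1R alone was tested and was lower in limma but not in edgeR, DESeq2, or limma-voom (0.135 CPM in U251MG, 10.2 CPM in U87MG), and PTPRC, CD68, and CD3E had no tag in U251MG. Where a library shows no tag, a level of up to 0.243 CPM remains possible. Summed over the list, leukocyte genes were at 0 to 0.486 CPM in the U251MG libraries and at 6.53 to 15.9 CPM in those of U87MG. Of 10 epithelial genes, 3 were tested, of which KRT8 was lower (-1.60) and 2 did not pass, with CDH1 at no tag in U251MG. The summed epithelial list was at 49.8 to 106 CPM in U251MG, 2.201 to 3.65 CPM in U87MG, 299 to 390.0 CPM in T98G, and 948 to 1311 CPM in DBTRG-05MG. Of 10 fibroblast and pericyte genes, 6 were tested, 2 higher, 3 lower, and 1 not past. There THY1 was set apart higher at 527 ± 128 CPM, with 219 ± 36.7 CPM in T98G, and PDPN, podoplanin, set apart lower at 0.209 CPM, with 55.1 CPM in U87MG, while DCN and LUM had no tag in U251MG. COL1A2 was above the mean of the other lines on the log2 scale only (1.82). It was at 88.2 CPM in U251MG, 105 and 186 CPM in U87MG and T98G, and 0.154 CPM in DBTRG-05MG. Without DBTRG-05MG its difference was -0.80.

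Mesenchymal glioblastoma genes were mixed, with 7 of 27 higher, 10 lower, 10 not past, and a median log2 difference of -0.15. The lower count was 6 without U251MG replicate 2 or 3. The matrix protein THBS1 was the most raised (106 ± 60.9 CPM, 2.98), with 90.2 ± 88.3 CPM in T98G, and TNC, tenascin C, was higher by 2.36. LOX, the collagen cross-linking enzyme, and TGFBI were set apart lower, with log2 differences of -3.09 ± 0.28 and -1.45 ± 0.22. LGALS1, galectin 1, was at 2262 CPM against 8514, 5623, and 4729.7 CPM in U87MG, T98G, and DBTRG-05MG, and FN1, fibronectin, at 21.6 CPM against 230.4, 83.01, and 11.2 CPM. CD44 did not pass the threshold (-0.20), nor did CHI3L1 (-1.44), which passed at -2.05 without U251MG replicate 1, -1.58 without U87MG replicate 3, and -1.70 without T98G replicate 2.

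Transcription factors of development moved in both directions. Of 47 tested, 14 were higher, 16 lower, and 17 not past, and 9 were set apart. The balance depended on the tool, with 16 higher and 10 lower in edgeR and 16 higher and 13 lower in both DESeq2 and limma-voom. IRX1 was at 78.2, 131, and 70.7 CPM in U251MG and 28.5, 19.3, and 27.5 CPM in T98G, and under 1 CPM in the other 2 lines, a log2 difference of 5.26 ± 0.25. EN1, the midbrain and hindbrain factor engrailed 1, was at 27.2 ± 1.23 CPM and DLX5, of bone and forebrain, at 10.9 ± 4.11 CPM, both set apart. On the other side, FOXC2, TBX15, PAX3, ZIC2, and TWIST2 were set apart lower together with FOXD1. FOXC2 had 3 tags in the U251MG libraries, a ratio of the other lines to U251MG of 293 (100.2 to 1419, 95% exact Poisson interval). TBX15 had 1 tag and a ratio of 622 (112 to 24549.6), and PAX3 had 2 tags and a ratio of 189 (52.3 to 1559). All 5 genes were read in every one of the other 3 lines, TWIST2 for example at 6.35, 15.9, and 12.8 CPM on average against 1.93 CPM in U251MG.

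Of 39 autosomal HOX genes, 19 were tested, 10 were higher, 5 lower, and 4 not past, with a median log2 difference of 0.69. No HOX gene was set apart higher. Summed over the list, the level was 196 to 241 CPM in the U251MG libraries and 1152 to 1468 CPM in those of DBTRG-05MG. It was 88.4 to 102 CPM in U87MG and 111 to 134 CPM in T98G. HOXB7 was at 68.6 ± 12.5 CPM in U251MG and 83.1 ± 5.33 CPM in DBTRG-05MG, against 3.72 and 0.562 CPM in U87MG and T98G. HOXC10 averaged 26.4 CPM in U251MG and 0.0515, 30.4, and 13.1 CPM in U87MG, T98G, and DBTRG-05MG, with U87MG near no tags. HOXB4 was set apart lower (1.48 CPM against 6.85, 6.25, and 85.9 CPM), and HOXB2 was at 0.108 CPM in U251MG and 0.177 CPM in T98G but at 42.3 and 37.2 CPM in U87MG and DBTRG-05MG. Neighboring genes of the HOXB cluster therefore differed in direction within U251MG.

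Of 24 tested receptor tyrosine kinases, 11 were higher (45.8%, beside 17.5% of all tested genes), 6 lower (25%, beside 19.4%), and 7 not past, with a median log2 difference of 0.68. EPHA3, a receptor for ephrin A ligands, was at 37.9, 41.4, and 45.3 CPM in U251MG and 14.5, 4.83, and 25.3 CPM in DBTRG-05MG, with under 1 CPM elsewhere, and was set apart (4.60 ± 0.34). PDGFRA, the platelet-derived growth factor receptor that marks the proneural state, was at 19.5, 36.9, and 23.4 CPM in U251MG and at no more than 3.32 CPM in any other library (4.28 ± 0.25). ALK averaged 11.3 ± 3.15 CPM and EPHB3 11.6 ± 8.69 CPM, and both were set apart, although ALK overlapped U87MG (3.97 ± 2.96 CPM) once the libraries were scaled. FGFR1 was lower, with 10.3 ± 1.67 CPM against 70.01, 58.4, and 15.3 CPM in U87MG, T98G, and DBTRG-05MG. PDGFRB, the other PDGF receptor, was lower as well (-1.65). EGFR was at 135 ± 2.63 CPM against 116, 139.7, and 78.5 CPM and did not pass (log2 difference 0.24, limma adjusted p = 0.27), nor did MET (0.69), which passed at 0.85 without T98G replicate 2.

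Of 20 tested growth factor ligands, 6 were higher, 7 lower, and 7 not past, and 2 were set apart lower. The EGFR ligand EREG, epiregulin, was at 0.125 CPM in U251MG against 67.97, 0.834, and 144 CPM, and VEGFC, the lymphatic growth factor, at 3.34 against 19.7, 11.9, and 11.1 CPM. AREG, amphiregulin, had no tag in U251MG, the mean of the other lines being at least 189-fold higher than 3 tags in 1 library, and that mean came from DBTRG-05MG (137 ± 32.2 CPM). TGFA, another EGFR ligand, was at 47.5 ± 25.2 CPM in U251MG and 73.9 ± 22.2 CPM in DBTRG-05MG, and higher than the mean by 2.04. VEGFA did not pass (0.72), although it did at 1.04 without U251MG replicate 2 and at 0.80 without U87MG replicate 2.

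Genes of the BMP, TGF-beta, and Wnt pathways moved both ways, with 9 of 22 tested higher, 8 lower, and 5 not past, and 5 set apart higher. ID genes encode inhibitors of basic helix-loop-helix factors and are known targets of BMP signaling. ID4 was at 109, 66.2, and 92.4 CPM in U251MG against 3.905, 1.401, and 4.63 CPM on average in U87MG, T98G, and DBTRG-05MG (4.65 ± 0.34). ID3 was at 2051, 2099, and 2167 CPM against 382, 260.1, and 446 CPM (2.60 ± 0.35), and ID2 was higher by 2.03. ID1 was higher than the mean (552 ± 273 CPM, 2.36) without being set apart, with 214 ± 154 CPM in U87MG. Of the Wnt antagonists, DKK1 was at 46.5 ± 5.06 CPM and FRZB at 5.09 ± 4.37 CPM, both set apart higher, while the ligand WNT5A was lower (-3.56). BMP2 was set apart lower, at 0.103 CPM against 2.84, 7.099, and 0.888 CPM.

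**Figure D2:**
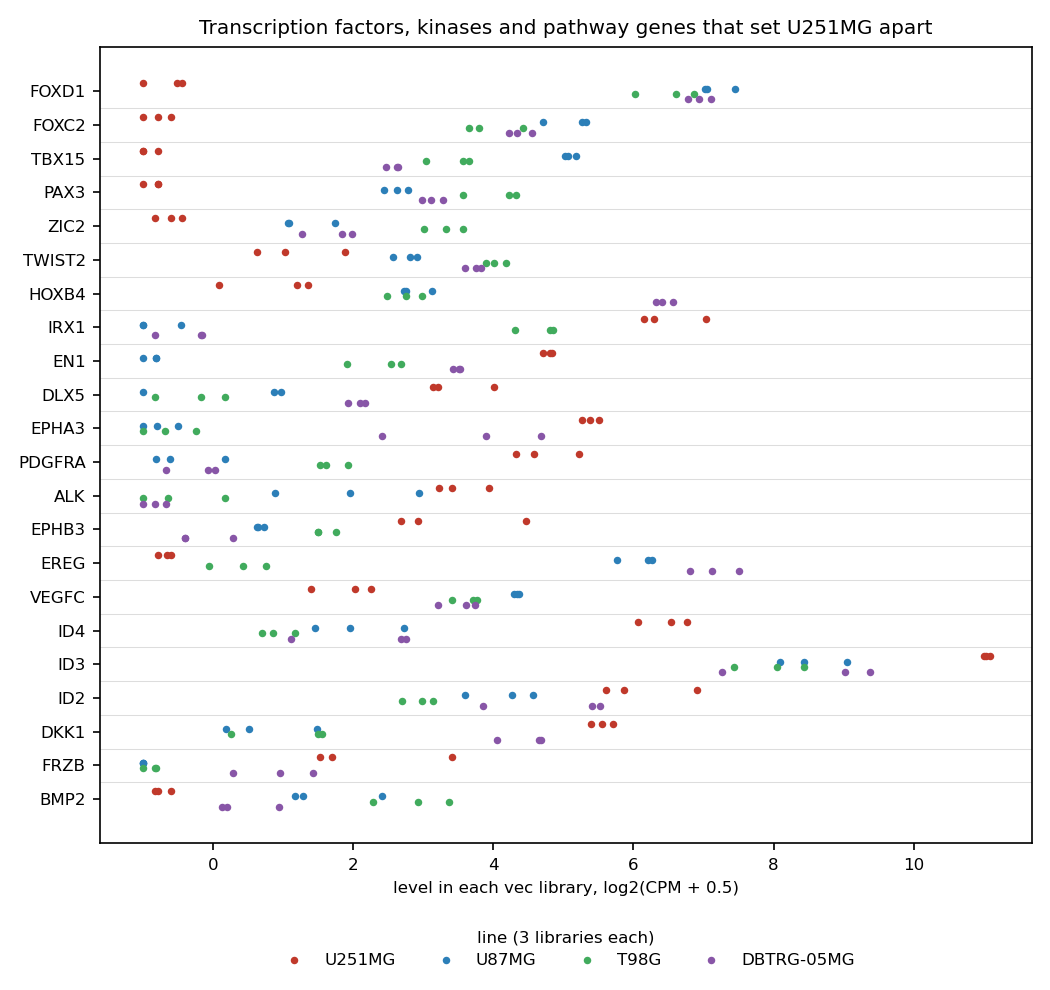
Level of 22 transcription factors, receptor tyrosine kinases, ligands, and pathway genes that set U251MG apart, as log2(CPM + 0.5) in each of the 12 “Vec” libraries, 1 point per library and 1 color per line. From FOXD1 to HOXB4 and for EREG, VEGFC, and BMP2 the U251MG points lie to the left of the other lines, and from IRX1 to EPHB3 and from ID4 to FRZB they lie to the right, with the narrowest gaps in ID2 and FRZB.

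Genes of the extracellular matrix and of adhesion moved in both directions. Of 20 tested collagen genes, 8 were higher, 5 lower, and 7 not past. COL11A1 was at 129, 101, and 72.2 CPM in U251MG against 0.638, 0.281, and 23.5 CPM on average in U87MG, T98G, and DBTRG-05MG (5.11 ± 0.25), and COL14A1 at 254, 83.00, and 196 CPM against 0.0773, 13.3, and 50.6 CPM (4.46 ± 0.36). COL9A3 and COL21A1 were set apart higher too, at 20.9 and 8.88 CPM. COL6A3 was at 0.856 ± 0.409 CPM in U251MG and 0.195 ± 0.11 CPM in DBTRG-05MG, against 302 ± 82.1 and 869 ± 386 CPM in U87MG and T98G. COL7A1, the anchoring fibril collagen, was set apart lower (-2.34 ± 0.24), and COL1A1 averaged 0.882 CPM, with 354 CPM in U87MG.

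Of 22 tested integrin and laminin genes, 10 were higher, 7 lower, and 5 not past. ITGA9 was at 10.54, 20.5, and 16.01 CPM in U251MG and had no tag in any library of U87MG and T98G (4.77 ± 0.20). ITGB4, the hemidesmosome integrin, was at 233, 441, and 288 CPM in U251MG and 126, 110.0, and 159.9 CPM in DBTRG-05MG, with under 10 CPM on average in U87MG and T98G. The laminin genes LAMB3 (4.99 CPM against 13.5, 21.9, and 33.97 CPM) and LAMC1 (-1.01) were set apart lower, and ITGA5, the fibronectin receptor subunit, was lower (-1.53). Of 20 tested genes of cell-cell adhesion, 6 were higher, 5 lower, and 9 not past. CDH11 was set apart higher, at 70.9 ± 40.9 CPM with 24.04 ± 13.5 CPM in T98G, and JAM2 set apart lower, at 0.782 CPM against 31.5, 2.37, and 25.9 CPM. CDH4 was at 118 ± 18.2 CPM and CDH2, N-cadherin, at 223 ± 67.8 CPM, levels that DBTRG-05MG shared at 96.4 ± 51.5 and 318 ± 19.5 CPM.

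Of 18 tested matrix proteases and inhibitors, 4 were higher and 9 lower. The inhibitor TIMP2 was set apart higher (472 ± 75.2 CPM against 78.1, 249.7, and 284 CPM), and the proteases ADAMTS1 (-2.93) and MMP19 (-3.51) were set apart lower. MMP2 was at 94.00 ± 32.7 CPM against 1596, 512, and 52.8 CPM in U87MG, T98G, and DBTRG-05MG. MMP3 was at 0.563 CPM, with 288 CPM in U87MG, while ADAM12 was higher (1.60). Of 15 tested contractile genes, 6 were higher, 3 lower, and 6 not past. CCN2, a list member that encodes a secreted protein and not a contractile one, was higher (177 ± 109 CPM, 2.89). CNN3 was set apart higher (307 ± 25.4 CPM). MYL9, the smooth muscle myosin light chain, was set apart lower at 0.324, 0.159, and 0.201 CPM against 206, 2.896, and 106 CPM. Of 16 tested S100A and annexin genes, 2 were higher, 8 lower, and 6 not past, with a median log2 difference of -0.76. ANXA3 was higher (2.52), S100A11 lower (1126 ± 266 CPM, -1.10), and the largest fall was ANXA8 (-1.26), whose level was 4.15 CPM in U87MG and under 1 CPM on average in the other lines.

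Of 22 tested genes of hypoxia and glycolysis, 10 were lower (45.5%, beside 19.4% of all tested genes), 4 higher (18.2%, beside 17.5%), and 8 not past, with a median log2 difference of -0.65. The higher count was 2 without U251MG replicate 1, U87MG replicate 3, T98G replicate 1, or DBTRG-05MG replicate 2. LDHA led the lower ones. CA12, a membrane carbonic anhydrase, was at 1.297, 1.75, and 0.469 CPM against 164, 35.7, and 43.4 CPM on average in U87MG, T98G, and DBTRG-05MG (-5.23 ± 0.49). HK2, the inducible hexokinase, was at 11.1 ± 1.31 CPM against 85.97, 35.4, and 36.8 CPM, and SLC2A3, the glucose transporter GLUT3, at 18.8 ± 4.83 CPM against 49.7, 29.3, and 95.7 CPM. With LOX, these were the 5 genes of the list set apart lower. Other genes of the same list did not follow. PFKFB3, which makes the activator of phosphofructokinase, was set apart higher at 245 ± 42.98 CPM against 65.7, 42.1, and 58.5 CPM, and the oxygen-sensing hydroxylase EGLN3 was higher (2.32).

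Of 24 tested detoxification and redox genes, 4 were higher and 10 lower. The aldo-keto reductases AKR1C1 and AKR1C2 were at 21.4 and 2.23 CPM in U251MG and at 679.8 and 1659.8 CPM in T98G, and they are near-identical copies among which reads may be split. The drug exporters ABCC2 (-2.83) and ABCG2 (-2.36) were set apart lower as well. GSTM3 was at 129.5 ± 30.5 CPM in U251MG and 154 ± 17.5 CPM in T98G, with 0.0965 and 1.33 CPM in U87MG and DBTRG-05MG. Of 14 tested genes for repair of alkylation damage, 2 were higher (14.3%, beside 17.5% of all tested genes), 1 lower (7.14%, beside 19.4%), and 11 not past. The lower gene was MGMT, which no other tool called lower. edgeR and limma-voom called 0 genes lower, and DESeq2 called 1 other, with MGMT at 1.17. LIG3, a DNA ligase encoded on chromosome 17, was set apart higher (1.01). MGMT, which removes the methyl groups left by temozolomide, was at 1.703, 1.99, and 0.603 CPM in U251MG, under 0.2 CPM on average in U87MG and DBTRG-05MG, and 114 ± 31.1 CPM in T98G. Its difference from the mean was -0.90 ± 0.27 at a pseudocount of 0.5. It was -0.56 and no longer past the threshold without U251MG replicate 3, and it took the other sign in 5 of the other settings.

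Of 21 tested genes of cholesterol synthesis and uptake, 8 were lower, 1 higher, and 12 not past, with a median log2 difference of -0.51, and without U251MG replicate 1 the lower count was 4. SCD, a desaturase of fatty acids, was lower (-1.69). Of 22 tested genes of the integrated stress response, 3 were higher (13.6%, beside 17.5% of all tested genes), 2 lower (9.09%, beside 19.4%), and 17 not past. Their summed level was 5409, 1239, and 4674 CPM in the U251MG libraries, and 6 were higher and 1 lower without U251MG replicate 2, and 5 higher without U87MG replicate 1. VLDLR was set apart higher (1.83), and ADM2 was lower (-1.59), with 15.1 CPM in DBTRG-05MG. The cultures differ in medium, as given above, and its part in these values was not tested.

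None of 25 tested proliferation genes passed the threshold in limma, where 1 had an unadjusted p under 0.05, and edgeR called 0 and DESeq2 1. Their median log2 difference was -0.04, and their summed level 1030.0, 3362, and 1719 CPM in the U251MG libraries. MKI67 was at 71.5 ± 63.3 CPM against 50.2, 19.2, and 71.7 CPM, and TYMS, with 0.97, was the furthest from 0 on the higher side. Of 21 tested genes of cell cycle control, 1 was higher, 8 were lower, and 12 did not pass. CDKN1A, the inhibitor p21, was at 106 ± 10.6 CPM against 407, 84.3, and 1439 CPM. CDK4 was set apart lower (-0.75), CCND1 was lower (-1.48), and MDM2 was lower (-0.76) with 199 ± 65.6 CPM in DBTRG-05MG. At 9p21, CDKN2B had no tag in U251MG, U87MG, or DBTRG-05MG and 19.9 ± 11.98 CPM in T98G, and CDKN2A averaged 0.027 CPM in U251MG.

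Among interferon-stimulated genes, 3 of 24 tested were higher (12.5%, beside 17.5% of all tested genes), 1 was lower (4.17%, beside 19.4%), and 20 did not pass. Summed over the list, U251MG replicate 1 stood apart at 3206 CPM, with 608 and 574 CPM in replicates 2 and 3, and without it 1 gene was higher and 5 were lower. The U87MG libraries were at 391 to 457 CPM, those of T98G at 1202 to 2412 CPM, and those of DBTRG-05MG at 357 to 2032 CPM. IFIT2 was the most raised of those past the threshold (1.64). IRF7, the interferon regulatory factor, was set apart lower with 2 tags in U251MG, and the ratio of the other lines to U251MG was 438 (121 to 3620.3, 95% exact Poisson interval). Of 19 tested genes of antigen presentation, 5 were lower and 14 did not pass. None was higher in limma, where 1 had an unadjusted p under 0.05, and edgeR called 1. CD74, the invariant chain of class II molecules, had 3 tags in U251MG and a ratio of 801 (274 to 3885), and HLA-DPA1 was at 0.291 CPM against 41.8, 3.85, and 3.93 CPM, both set apart. HLA-DRA averaged 13.95 CPM in U87MG and under 0.2 CPM in the other lines. B2M of class I was at 3275 ± 1021 CPM and did not pass (0.25).

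Of 21 tested NF-kB target and cytokine genes, 8 were lower, 2 higher, and 11 not past. ICAM1 was set apart lower (3.03 ± 0.373 CPM against 9.26, 13.98, and 12.4 CPM), PTGS2 was lower (-2.50), and CXCL1 had no tag in U251MG, at least 48.8-fold below the mean of the other lines when 3 tags in 1 library are allowed. Of 22 tested immediate early genes, 6 were lower, 1 higher, and 15 not past, with 3 lower without U251MG replicate 2 or 3. DUSP4 was set apart lower (-2.61), IER3 was lower (1.49 CPM, with 285 CPM in U87MG and 0.196 CPM in DBTRG-05MG), and FOSL2 was higher (1.16). Of 14 tested imprinted genes, 3 were higher and 3 lower (21.4% each, beside 17.5% and 19.4% of all tested genes), and 8 not past. The lower count was 1 in edgeR and limma-voom and 2 in DESeq2. SGCE was set apart higher (127 ± 18.1 CPM, 1.17), and PEG10 was higher (1.84, and 1.43 and no longer past the threshold without U251MG replicate 2). NDN was lower at 0.027 CPM, with 11.2 CPM in DBTRG-05MG.

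**Figure D3:**
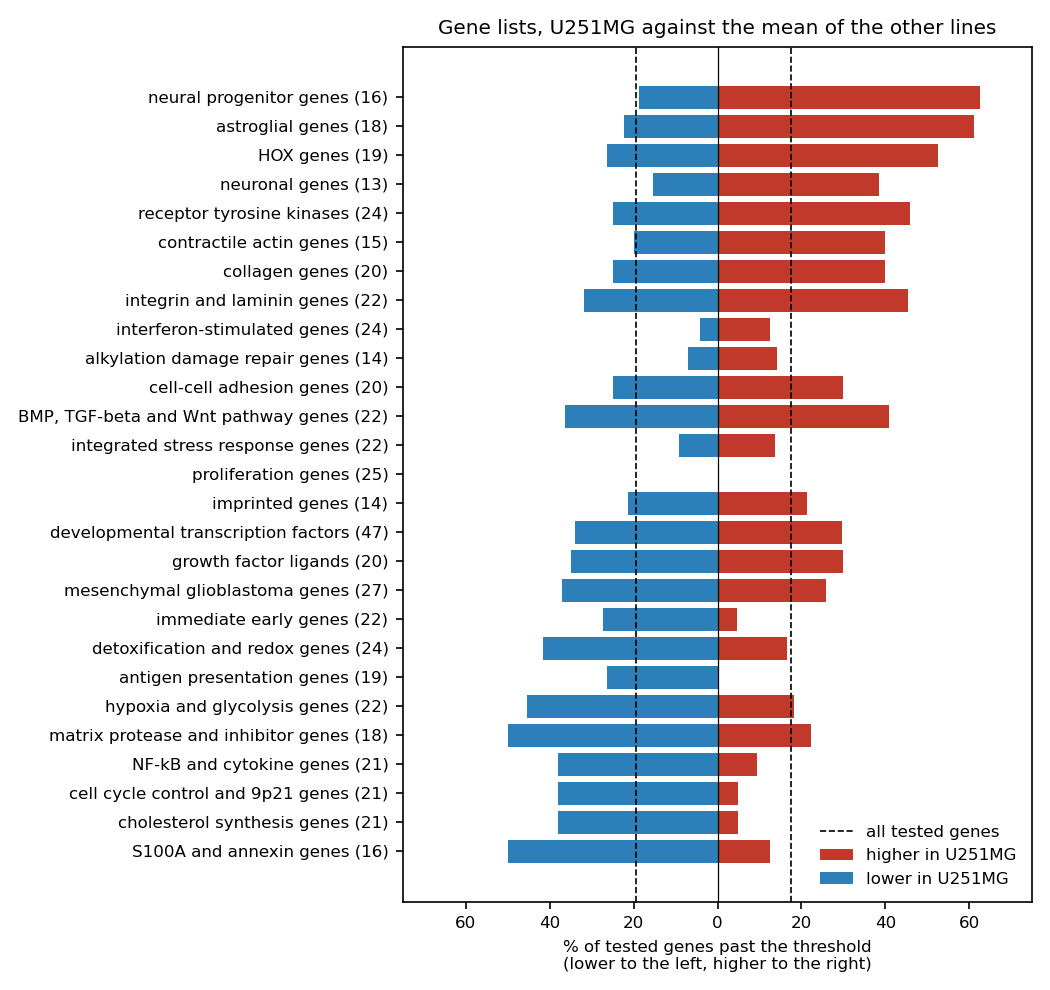
Share of the tested genes of each list past the threshold, in percent, to the right of 0 for genes higher in U251MG and to the left for genes lower, for 27 lists with at least 10 tested genes (their number in parentheses). Dashed lines give the shares over all tested genes, 17.5% and 19.4%. Neural progenitor and astroglial genes lie at the top, and proliferation genes have no bar.

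The differences were not spread evenly over the genome. On chromosome 17 the median log2 difference of 716 tested genes was 0.38, with 34.6% of them higher, 10.8% lower, and 55 set apart higher (7.68%, against 3.77% over all genes). GFAP, GAS7, ITGB4, and LIG3 lie there. Chromosome 6 had a median of 0.25 over 616 genes. Chromosome 22 had a median of -0.53 over 291 genes, with 44.7% lower, 4.81% higher, and 30 set apart lower (10.3%, against 3.57%), among them RAC2 and APOBEC3B. The 1 gene of chromosome 22 set apart higher was MLC1. Chromosome 12 had a median of -0.46 over 633 genes, with 37.8% lower and 57 set apart lower (9.0%), among them STAT6, CDK4, and MMP19. Chromosomes 4 and 13 had medians of -0.34 and -0.30. The sign on chromosomes 6, 12, 13, 17, and 22 was the same against each of the other lines, whereas the median of chromosome 4 was 0.10 against T98G. Copy number was not measured here, and no test was run on these medians.

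In runs of 30 neighboring tested genes, 373 in all, the median differences had a 5th percentile of -0.594 and a 95th percentile of 0.479. The highest run lay on chromosome 11 from 111540280 to 117316259 (hg38, from LAYN to BACE1), with a median of 0.95 and 24 of 30 genes higher. Of its 30 genes, 7 were set apart higher (beside 3.77% of all tested genes), namely CRYAB, IL18, LAYN, DIXDC1, DRD2, TMPRSS5, and LINC02762. Its median was 1.22 against U87MG, 1.24 against DBTRG-05MG, and 0.16 against T98G. A run on chromosome 7 from 48035511 to 66493566, which includes the neighbors LANCL2 and VOPP1 of EGFR as genes set apart higher, had a median of 0.74. A run on chromosome 19 from 19710472 to 30016612 had a median of 0.85, with 3.12 against U87MG and -0.33 against DBTRG-05MG, and held no gene set apart. The 2 lowest runs were neighbors at the end of the long arm of chromosome 13, from 95677139 to 106568137 and from 107163510 to 114305817. Each had a median of -0.76, with 15 and 22 of 30 genes lower. Between them 9 genes were set apart lower, ZIC2 included (beside 3.57% of all tested genes).

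**Figure D4:**
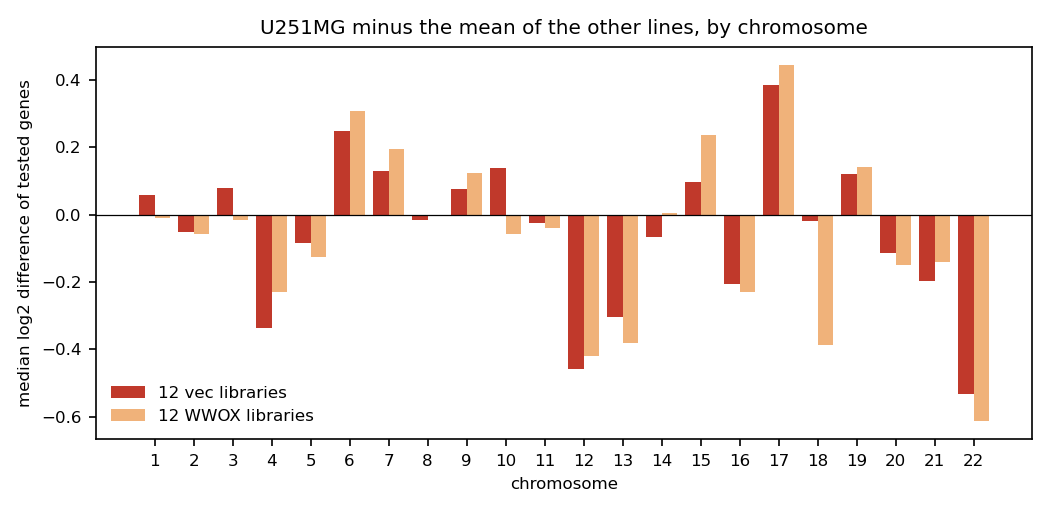
Median log2 difference of the tested genes of each autosome, U251MG minus the mean of the other 3 lines, in the 12 “Vec” libraries and in the 12 “WWOX” libraries. Chromosomes 17 and 6 stand highest and 22 and 12 lowest in both, while chromosome 18 is near 0 in the “Vec” libraries and at -0.39 in the “WWOX” libraries.

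The same contrast was then taken in the 12 “WWOX” libraries, which the comparison above did not use. They come from the same 4 lines after a separate transduction, so they repeat the line and not the tumor. In these, 4071 of 11584 tested genes passed the threshold (35.1%). Of the 842 genes set apart in the “Vec” libraries, 811 were tested in the “WWOX” libraries, 804 had the same sign, 729 passed the threshold with the same sign, and 416 were set apart again. All 24 genes of largest difference passed again with the same sign. The log2 difference in the “WWOX” libraries was 7.72 for GFAP, 6.59 for S100B, 5.92 for CRYAB, 8.85 for C5orf46, -7.78 for LDHA, -7.75 for FOXD1, -8.50 for PERP, and -6.05 for STAT6. The U251MG “WWOX” libraries varied widely for GFAP (1949 ± 1629 CPM) and S100B (135 ± 98.7 CPM). The GFAP difference changed by -2.01 between the variants, which did not pass (limma adjusted p = 0.47). Among the regulators it was 5.35 for SOX2, 4.67 for PDGFRA, 5.44 for IRX1, 6.03 for ID4, -5.50 for FOXC2, and -4.30 for PAX3. In a fit of all 24 libraries, the difference of U251MG from the other lines changed between the variants in 34 of 11474 genes.

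**Figure D5:**
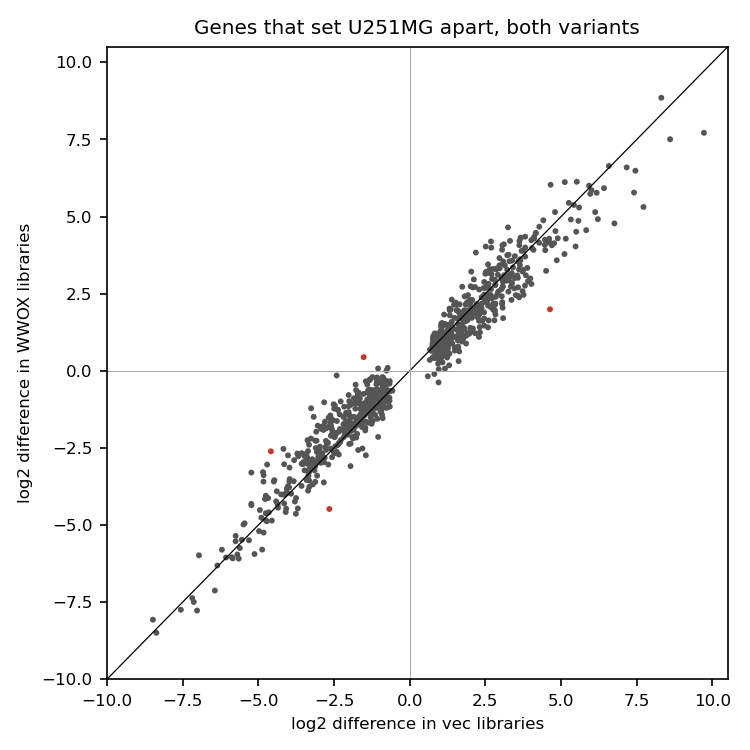
Log2 difference of U251MG from the mean of the other lines in the “Vec” libraries (horizontal) and in the “WWOX” libraries (vertical) for the 811 set-apart genes tested in both, with the line of equal values. Most points lie near the line, and the 4 in red are those whose difference changed between the variants at a limma adjusted p under 0.05.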

How the data were processed

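CAGE-Seq gene expression of 4 glioblastoma lines in “Vec” and “WWOX” variants was taken from the deposited CPM table, in which the authors gave, per gene, tag counts scaled to CPM. The submitters' processing notes name STAR, SAMtools, hg38, and limma 3.42. Whether counting used strand is not given in the sources used here. Values in every library were whole multiples of 1 tag (100% within a tolerance of 0.02), which gave back the tags and the depth. Intervals and limits cover counting error only.

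Of 43037 genes, 43033 were matched to GENCODE symbols and positions (hg38) and 4 were not. Autosomal genes with at least 5 CPM in 1 “Vec” library were kept. CPM was scaled by TMM factors from edgeR 4.0.16 and tested as log2(value + 0.5) with limma 3.58.1 (trend, empirical Bayes, two-sided, R 4.3.3) over 12 libraries in 4 groups, 8 residual degrees of freedom, U251MG minus the unweighted mean of the other lines. Printed CPM values are as deposited, and fold changes on this log2 scale understate low genes. P-values were adjusted by Benjamini-Hochberg over 11474 genes at 0.05. Replicate numbers did not pair the libraries. The fit was also run in the “WWOX” libraries and, on recovered tags, with edgeR, limma-voom, and DESeq2 1.42.0, after a check on simulated data. The “WWOX” fit took its own filter, which 11584 genes passed. Alternatives covered the pseudocount, the filter, the scaling, the chromosomes used, the libraries and lines left out, and the replicate block.

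Named genes were WWOX, the 12 largest differences each way among set-apart genes whose libraries did not overlap, and, in each list, members of largest difference each way or of defining role. Certain listed genes and 1 list are not reported here. The members and the lists were chosen with earlier results of these data known. Promoter windows were read from RefSeq (GRCh38.p14). Of 11474 tested genes, 9087 had a window.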

Additional observations from a re-analysis of the deposited data

Results flagged for a closer look

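The U251MG difference from the other lines changed between the variants in 6 of the listed genes, of which 575 were tested. Over all 11474 tested genes it changed in 34. Both counts use the term for that change in a limma fit of all 24 libraries. The lists were chosen with earlier results of these data known. The largest change was in SOX11, a transcription factor of neural progenitors, whose difference moved by -5.67 ± 0.36 (SE, adjusted p = 2.01e-09) from the “Vec” to the “WWOX” libraries. SOX11 was at 13.1 ± 4.47 CPM (SD, n = 3) in the “Vec” libraries of U251MG and had no tag in its “WWOX” libraries, whereas T98G went from 25.9 to 45.5 CPM and DBTRG-05MG from 1.08 to 8.48 CPM. The smooth muscle gene TAGLN changed by -2.80 (adjusted p = 0.0145), with U87MG at 0.528 ± 0.16 CPM in “Vec” and 47.1 ± 29.4 CPM in “WWOX” libraries. The imprinted gene NDN changed by -1.68 (adjusted p = 0.0145), with U87MG at 1.22 and 29.5 CPM. FGFR1 changed by 1.30 (adjusted p = 0.0444), from 10.3 ± 1.67 to 19.4 ± 3.54 CPM in U251MG. The neurotrophin receptor gene NTRK3 changed by -1.98 (adjusted p = 0.0479), from 7.33 ± 0.536 to 2.596 ± 2.03 CPM in U251MG. ANXA6 changed by -1.40 (adjusted p = 0.0482), from 274 ± 52.9 to 95.6 ± 16.8 CPM in U251MG. The variants are separate transduced populations, so that WWOX and the population cannot be told apart.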

How the results depend on the processing

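The number of genes past the threshold was 3074 to 5473 and that of set-apart genes 622 to 977 over the alternatives that kept all libraries, both within 1.5 times the reported counts, with the lowest from a filter on a mean of 5 CPM and the highest without a filter. edgeR on recovered tags called 3871 genes (2078 higher, 1793 lower), and CPM as deposited gave 2277 higher and 1936 lower. Leaving out 1 library gave 3192 (without U251MG replicate 3) to 4870 genes (without T98G replicate 2), 622 to 1005 set apart, and 277 to 315 list genes. Of the 842 set-apart genes, 604 stayed so under every setting with all libraries and 487 also without each library in turn. The 24 genes of largest difference kept their direction and side of the threshold under every alternative in which they were tested. Signs reversed for VIM without T98G (-0.065), PROM1 without DBTRG-05MG (0.0442), CSF1R without U87MG (0.20), and COL1A2 without DBTRG-05MG (-0.80). CDKN2B had no tag in the lines left without T98G and its difference there was 0. Signs also reversed for MGMT at a pseudocount of 0.1 (0.0103), in edgeR (0.99), limma-voom (0.64), and DESeq2 (1.17), and without T98G (1.69). Where a line was left out the mean is of the other 2 lines, and for MGMT under other tools the cause was not tested. VIM without 1 library lay at 0.38 to 0.75 and missed the threshold without U251MG replicate 1 or 2, U87MG replicate 1 or 3, T98G replicate 1, or DBTRG-05MG replicate 2 or 3. Replicate numbers did not pair the libraries (18 same-number pairs, r from -0.322 to 0.391, 5 over 0.1), and the fit with the replicate block called 4009 genes and 300 list genes and set 777 apart. Among the genes whose log2 differences are printed, it changed the calls of VIM (lost) and CHI3L1 (gained). At this depth, a gene without tags in a library may stand at up to 0.243 CPM.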
